A study of Mus musculus with 38 samples.

Results

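The messenger RNA that ribosomes were holding in astrocytes of the adult mouse cortex was compared with that in cortical neurons, gene by gene. Astrocytes were represented by 3 arrays from mice whose tagged ribosomes follow Aldh1L1, and neurons by 3 arrays from a Snap25 line named JD362. These 6 arrays were chosen by their labelled cell type from the 38 arrays of the series, which also hold mature oligodendrocytes, oligodendrocyte progenitors, oligodendroglia, total cortex RNA and mouse gliomas. Both groups were wildtype adult mice, carrying no tumour, of a mixed c57/bl6j, FVB and Swiss-Webster background, apart from the reporter each line carries, and each array held RNA pooled from at least 2 mice. The ages and the sexes of the mice were not given in the sources used here. The design text sets these arrays out as the normal translational profiles of the 2 cell types.

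In translating ribosome affinity purification, a tagged ribosomal protein is made in one cell type of a transgenic mouse, and the tagged ribosomes are pulled out of homogenised tissue together with the messenger RNA bound to them. The cells are never sorted, so each profile depends on where the driver gene is active and on how cleanly the pull-down leaves other RNA behind. Aldh1l1 encodes a folate enzyme used as a broad marker of astrocytes, and Snap25 encodes a protein of the synaptic fusion machinery found across neuron types, so excitatory and inhibitory neurons are mixed in the neuronal profile. Astrocytes clear transmitter and potassium from around synapses, supply neurons with lipids and fuel, and contact blood vessels with their endfeet. Neurons fire action potentials and release transmitter from vesicles.

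Levels are log2 array signals after quantile normalization over all 38 arrays, and each gene had 1 probe set. A level under log2 5.64, a signal of 50, is called dim. The limit was chosen and not measured from these arrays, and levels under it are to be read with caution. Where a mean was dim in 1 group, the fold change is given as "at least", taken against that limit, and where it was dim in both no fold is given. Of 15644 genes on the array, 9799 were above the limit in at least 3 of the 38 arrays and were tested with limma in 1 model of the 12 groups. A gene passed with a Benjamini-Hochberg adjusted p under 0.05 and at least a 2-fold difference. The p values measure the spread between pooled samples only. That spread is 1 estimate per gene over all 12 groups, not that of the astrocyte and neuron arrays alone. The groups include recruited tumour total RNA, with a median gene SD of 0.453. The median gene SD was 0.0883 in astrocytes and 0.0304 in neurons, and the submitters' arrays look to have been scaled group by group, which can narrow that spread by an amount that was not measured.

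The reporter genes followed the labels. Aldh1l1 stood at 11.41, 11.54 and 11.41 in the astrocyte arrays and at 7.6, 7.73 and 7.55 in the neuron arrays. The groups did not overlap, and Aldh1l1 was 14.2-fold higher in astrocytes (log2 difference 3.83, SE 0.44, limma adjusted p = 6.45e-09). Snap25 read 10.76, 12.39 and 11.06 in astrocytes and 15.55, 15.41 and 15.41 in neurons. It was 16.6-fold higher in neurons (limma adjusted p = 4.96e-12), and the spread among astrocyte arrays (SD 0.87) was far wider than among neuron arrays (SD 0.09), with astrocyte array 2 the highest.

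Astrocyte array 2 stood apart from its group in the same way for many neuronal genes. Of 18 pan-neuronal markers, 14 were highest in array 2 among the astrocyte arrays, and the median marker level was 5.98, 7.04 and 6.48 in arrays 1, 2 and 3. Of the 1405 genes that passed as higher in neurons with both means above the dim limit, 924 were highest in array 2. Of the 1272 genes higher in astrocytes with both means above the limit, 547 were also highest in array 2, against 328 in array 1 and 397 in array 3. The same count was not made over all tested genes. The listed astrocyte markers ran the other way, with medians of 12.62, 11.96 and 12.61. The summed level of the pan-neuronal markers (log2 of the summed signals) lay between 12.41 and 13.34 in astrocyte arrays and between 16.74 and 16.82 in neuron arrays, so transcripts of neuronal markers were measured in the astrocyte pull-down too. In bulk samples such as these, fewer cells of a type and less RNA per cell cannot be told apart, and the part of such transcripts in any difference was not tested. Without array 2, Snap25 was 23.4-fold higher in neurons rather than 16.6-fold, 2707 genes passed as higher in astrocytes and 2894 as higher in neurons, and of 396 genes picked by the naming rule 8 changed their call. The difference between the 3′ and 5′ actin probe sets, a mark of RNA integrity, spanned 2.47 to 4.25 in astrocytes, with array 2 the highest, and 3.17 to 3.76 in neurons. The same difference for Gapdh ran the other way, at 3.97, 2.60 and 4.17 in astrocyte arrays 1, 2 and 3, with array 2 the lowest, and 2.37 to 3.11 in neurons. The part of RNA integrity in any difference was not tested.

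**Figure D1:**
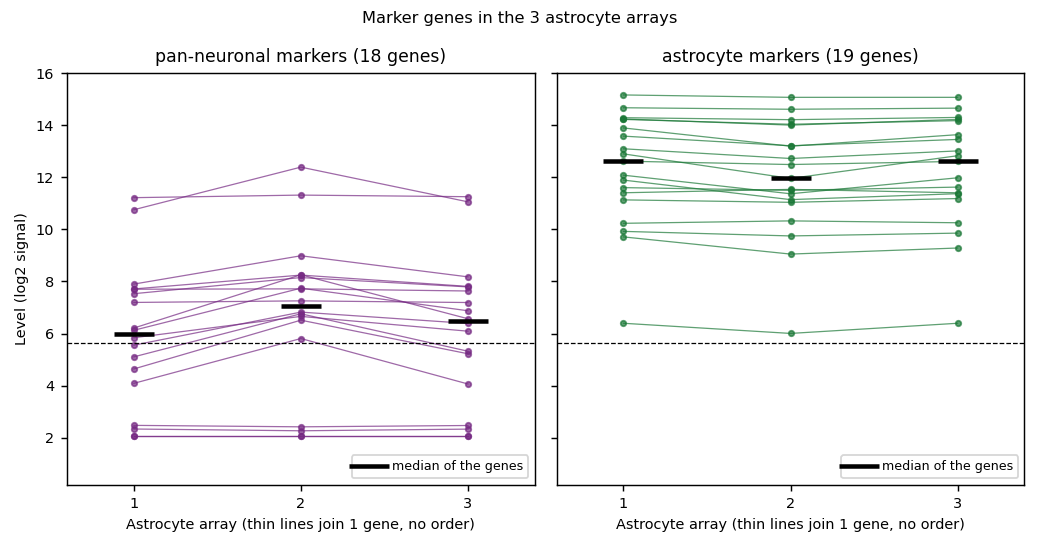
Levels (log2 signal, vertical axis) of 18 pan-neuronal markers (left) and 19 astrocyte markers (right) in astrocyte arrays 1, 2 and 3. Each thin line joins the values of 1 gene, the thick bar is the median of the genes and the dashed line is the dim limit. The pan-neuronal median is highest in array 2 (7.04) and the astrocyte median lowest there (11.96).

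More than 1 in 2 genes differed between the populations. Of 9799 genes tested, 2700 passed as higher in astrocytes (27.6%) and 2870 as higher in neurons (29.3%), together 5570 (56.8%), and 4229 did not pass. None of the passed genes had overlapping groups, but the groups did not overlap for 8641 of the 9799 genes in any case. In 1272 of the genes higher in astrocytes both means were above the dim limit, in 1222 the neuron mean was dim and in 206 both were. Among genes higher in neurons these numbers were 1405, 1253 and 212. Differences of at least 10-fold were found for 493 genes toward astrocytes and 432 toward neurons, and of at least 100-fold for 26 and 5.

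The balance of the 2 directions follows the scale. After quantile normalization the median gene's difference was 0.0, whereas it was -0.65 in the deposited values, 0.20 after centring each array on its median and -0.79 when arrays were scaled on spike-in controls. The deposited values gave 2015 genes higher in astrocytes and 4203 higher in neurons, so that 32.4% of the passed genes were higher in astrocytes against 48.5% here. Median centring gave 3066 and 2777 (52.5%), and spike-in scaling gave 1871 and 4431 (29.7%). Every difference below is on the quantile-normalized scale, and a difference near 2-fold is the kind that another scale can take across the threshold.

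**Figure D2:**
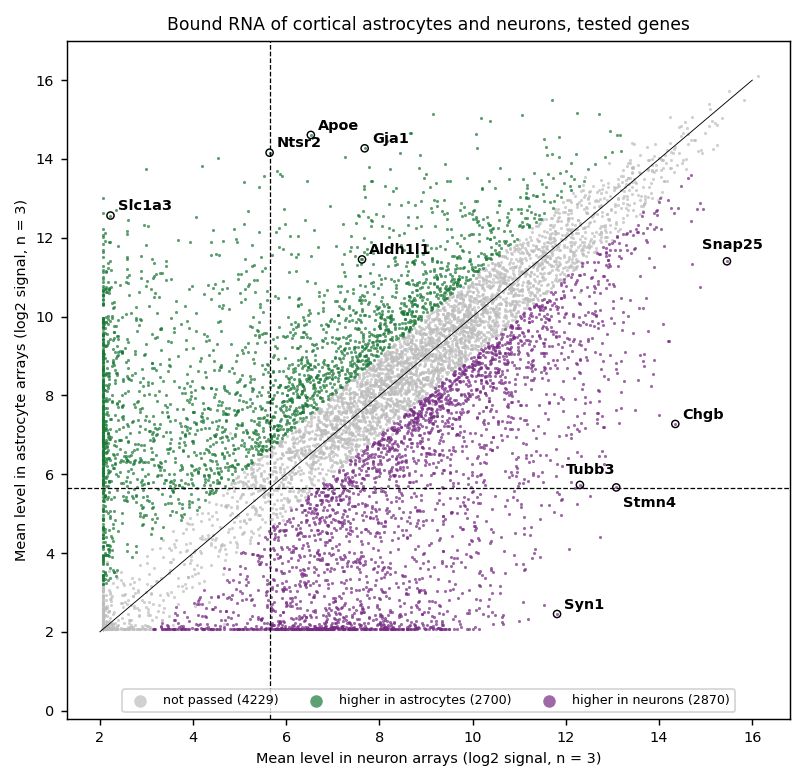
Mean level of each of the 9799 tested genes in the 3 neuron arrays (horizontal axis) and the 3 astrocyte arrays (vertical axis), both as log2 signal. Green marks the 2700 genes higher in astrocytes, purple the 2870 higher in neurons and grey the 4229 that did not pass; dashed lines are the dim limit. Apoe lies far above the diagonal and Stmn4 far below it, and the columns of points along the axes are genes at the lowest value in 1 group.

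Among genes above the dim limit in both groups, the largest measured difference toward astrocytes was that of Apoe. Apoe, the main lipid carrier of the brain, read 14.76, 14.44 and 14.63 in astrocytes and 6.23, 6.70 and 6.66 in neurons. The groups were far apart, a 271-fold difference (limma adjusted p = 4.11e-19). Timp4, an inhibitor of matrix metalloproteinases, was 238-fold higher, from 13.70, 13.55 and 13.85 against 5.80, 5.79 and 5.84. Tsc22d4, a leucine-zipper regulator, was 214-fold higher, S100a1, a calcium-binding protein, 202-fold and Fabp7, a fatty acid binding protein, 190-fold. Fabp7 showed no spread among astrocytes at 14.78 in each array. Mfge8, a secreted bridge between dying cells and phagocytes, was 128-fold higher, Plpp3, a lipid phosphatase, 111-fold, Luzp2 110-fold, the gap junction protein gene Gja1 96.2-fold and the alarmin gene Il33 83.8-fold.

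Other genes were bright in astrocytes and dim in neurons, so that their difference has only a lower bound. Ntsr2, a neurotensin receptor, read 14.24, 14.01 and 14.23 in astrocytes and 5.35, 5.73 and 5.84 in neurons, at least 366-fold higher. Its neuron mean lay just under the dim limit. Slc9a3r1, a scaffold that ties membrane proteins to ezrin, was at least 331-fold higher, Slc25a18, a mitochondrial glutamate carrier, at least 290-fold and Id3, an inhibitor of basic helix-loop-helix factors, at least 276-fold. The orphan receptor gene Gpr37l1 (245), the connexin gene Gjb6 (219), the matrix proteoglycan gene Bcan (201), Tlcd1 (164), Mlc1, which encodes a membrane protein of astrocyte contacts (158), and Ppp1r3g, a glycogen-targeting subunit of protein phosphatase 1 (133), followed, each number being the lower bound of the fold (at least).

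Toward neurons, the largest measured difference was that of Stmn4. Stmn4, a tubulin-binding stathmin, read 13.14, 13.09 and 13.01 in neurons and 5.17, 6.67 and 5.15 in astrocytes, a 171-fold difference (limma adjusted p = 2.85e-16). Array 2 alone carried the astrocyte mean above the dim limit, and without it Stmn4 was at least 173-fold higher. Chgb, a protein of dense-core granules, was 135-fold higher, from 14.31, 14.37 and 14.37 against 6.26, 8.25 and 7.31, and 189-fold without array 2. Syt16, a synaptotagmin relative, differed by -6.66 on the log2 scale, the neuronal tubulin gene Tubb3 95.1-fold, Uchl1, a ubiquitin hydrolase of neurons, 94.9-fold and Coro1a, an actin-binding coronin, 93.4-fold. Array 2 also carried the astrocyte means of Syt16, Tubb3 and Coro1a above the dim limit. Without array 2 those means were 5.49, 5.21 and 5.62, so only lower bounds remained for these genes. Prkar1b, a regulatory subunit of protein kinase A, was 90.3-fold higher, Fbll1 83.7-fold, Tmem59l 78.3-fold and Cyb561, a granule-membrane cytochrome, 75.4-fold.

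The largest lower bounds toward neurons were smaller than those toward astrocytes. Cracdl was at least 137-fold higher in neurons, with 12.80, 12.66 and 12.77 against 4.23, 4.81 and 4.21. Stmn2, the stathmin of growing axons, was at least 117-fold higher, Ly6e 96.1-fold, Tppp, a tubulin-polymerising protein, 85.6-fold and Pvalb, the calcium buffer of fast-spiking interneurons, 77.3-fold. Hs3st2, a heparan sulphate enzyme, was at least 76.5-fold higher, the kinesin gene Kif5c 76.4-fold, the transcription factor gene Bcl11a 74.2-fold, the bicarbonate carrier gene Slc4a10 72.0-fold and Syn1, which encodes synapsin 1 of the vesicle surface, 71.8-fold.

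The share of members that passed was then counted for gene lists written from general knowledge with earlier results of these data known. The list counts therefore describe the data and are not independent support. Over all tested genes the median log2 difference was 0.0, with quartiles of -1.32 and 1.21, and every count below is to be read against 27.6% higher in astrocytes and 29.3% higher in neurons.

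**Figure D3:**
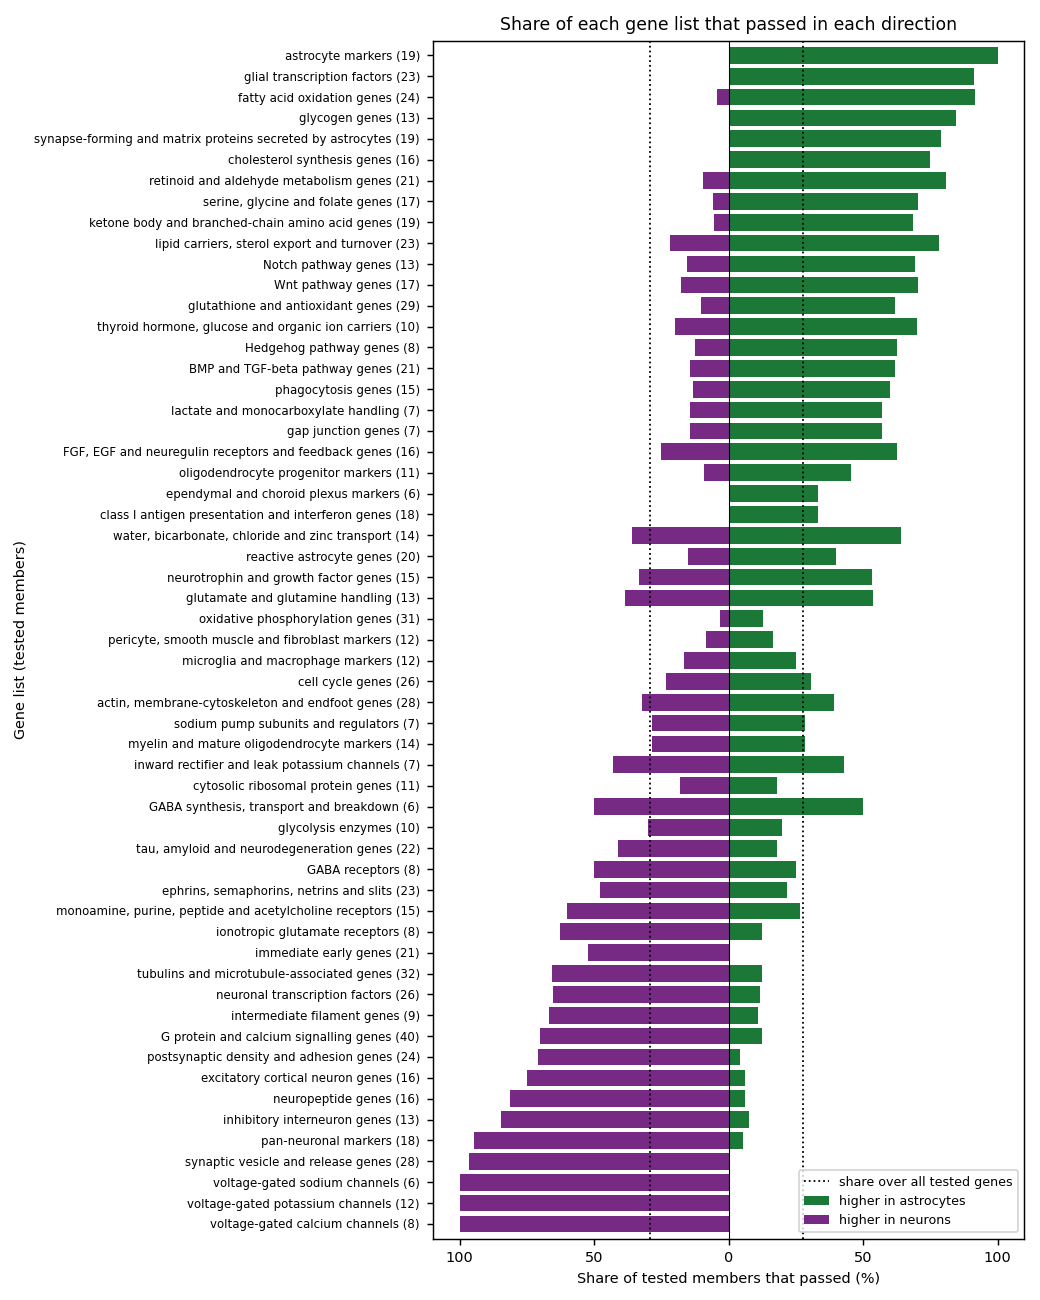
Share (%) of the tested members of each gene list that passed as higher in astrocytes (green, to the right of 0) or higher in neurons (purple, to the left), for lists with at least 6 tested members, whose number stands in brackets. The dotted lines mark 27.6% and 29.3%, the shares over all tested genes. The lists run from astrocyte markers, 19 of 19 higher in astrocytes, to the channel lists, in which every tested member was higher in neurons.

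All 19 tested astrocyte markers passed as higher in astrocytes, with a median log2 difference of 6.75, or 5.70 with dim levels raised to the limit. Gfap was not among the genes measured here. Slc1a3, the glutamate transporter GLAST, read 12.90, 11.96 and 12.83 in astrocytes and 2.23 in each neuron array, at least 121-fold higher. Slc1a2, the transporter GLT-1, was at least 71.9-fold higher, from 12.08, 11.37 and 11.98 against 2.97, 2.98 and 3.04. Both transporters were lowest in astrocyte array 2. Gja1 read 14.29, 14.22 and 14.30 against 7.47, 7.57 and 8.01. The zinc transporter gene Slc39a12 was at least 44.5-fold higher, Acsbg1, an acyl-CoA synthetase, at least 56.8-fold and Aqp4, the water channel of endfeet, at least 18.4-fold. Aldoc, the aldolase of astrocytes, was well above the limit in both groups (15.11 ± 0.05 and 11.06 ± 0.09, SD, n = 3 each) and 16.5-fold higher in astrocytes.

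Of 18 tested pan-neuronal markers, 17 were higher in neurons and 1 in astrocytes, with a median log2 difference of -5.00. Syp, a vesicle membrane protein, read 12.47, 12.36 and 12.39 in neurons and 6.34, 7.99 and 7.22 in astrocytes, 37.3-fold higher in neurons and 49.4-fold without array 2. Rbfox3, the splicing factor detected as NeuN, was 52.3-fold higher, the neurofilament gene Nefl 34.3-fold and the enolase gene Eno2 29.8-fold. Thy1, a surface glycoprotein of projection neurons, was 6.14-fold higher and remained bright in astrocytes (11.22, 11.32 and 11.26). The exception was Map2, a dendritic microtubule protein, whose probe set was dim in neurons (4.33 in each array) and read 7.70, 7.72 and 7.63 in astrocytes. The direction for Map2 rests on this 1 probe set, although neurons are known to express the gene.

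**Figure D4:**
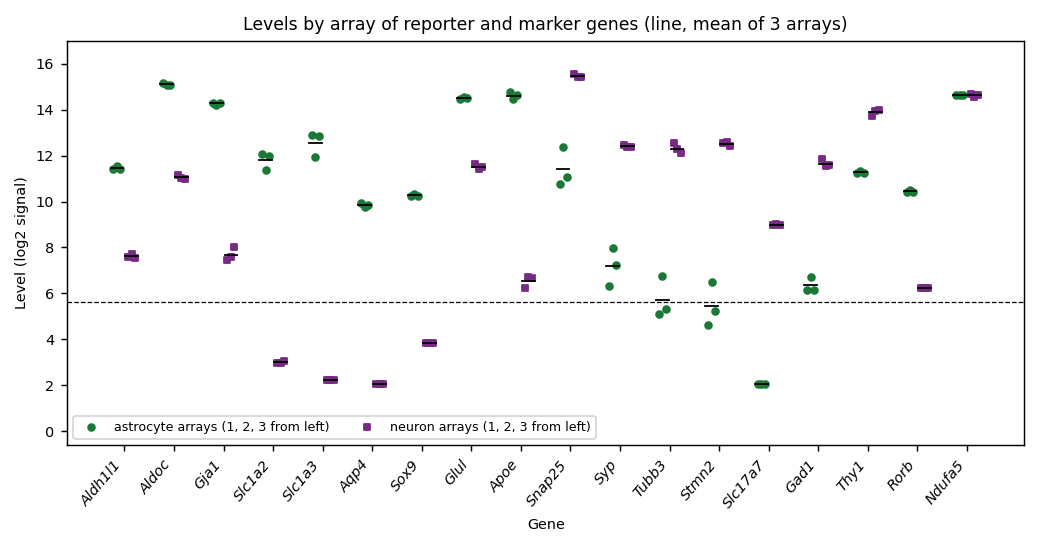
Level (log2 signal, vertical axis) of 18 genes in each of the 3 astrocyte arrays (green circles) and the 3 neuron arrays (purple squares), with the mean of each group as a line and the dim limit dashed. The groups are apart for every gene shown except Ndufa5, a respiratory chain gene with a mean of 14.63 in both, and the astrocyte points of Snap25, Syp, Tubb3 and Stmn2 are highest in array 2.

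Genes of excitatory projection neurons were mostly higher in neurons. Of 16 tested, 12 were higher in neurons and 1 in astrocytes (median log2 difference -3.92), and 9 were dim in astrocytes only. Slc17a7, the vesicular glutamate transporter of cortical projection neurons, was at the lowest value of 2.08 in each astrocyte array and at 8.96, 9.03 and 8.99 in neurons, at least 10.2-fold higher. The projection neuron factors Neurod6 and Tbr1 were at least 55.9-fold and 43.2-fold higher in neurons. Rorb, a nuclear receptor used as a marker of layer 4 neurons, ran the other way, at 10.43, 10.52 and 10.41 in astrocytes against 6.24, 6.25 and 6.25, and was 18.5-fold higher in astrocytes. Fezf2, a factor of deep-layer neurons, had overlapping groups with means of 10.57 and 10.55.

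Genes of inhibitory interneurons gave a like picture, with 11 of 13 higher in neurons and 1 in astrocytes (median -5.30). Sst, the somatostatin gene, was at least 51.4-fold higher in neurons, Calb1, a calcium buffer, 48.3-fold and Gad1, which makes GABA from glutamate, 39.5-fold. Gad1 read 11.84, 11.55 and 11.58 in neurons and 6.17, 6.72 and 6.17 in astrocytes, again with array 2 the highest. Vip did not pass (means of 11.05 and 9.99, limma adjusted p = 0.24). Sox6, a factor of interneurons and also of glia, was higher in astrocytes, with 7.39, 7.45 and 7.31 against 2.40, 2.40 and 2.39, at least 3.34-fold.

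Peptides and the granins that pack them into dense-core granules were strongly neuronal, with 13 of 16 higher in neurons (median -5.30) and 1 in astrocytes. Scg2 (secretogranin II) read 10.44, 10.82 and 10.71 in neurons and 2.18, 2.92 and 2.18 in astrocytes, at least 32.2-fold higher in neurons. Vgf was at least 44.7-fold higher, Chga at least 30.7-fold, and Cck, a peptide of many cortical neurons, 23.5-fold. Scg3, a granin-binding protein, was the exception, with 13.43, 13.60 and 13.43 in astrocytes against 10.88, 11.24 and 11.09, 5.34-fold higher in astrocytes (limma adjusted p = 4.92e-11). Cpe, which trims peptide precursors, differed by 1.24-fold (15.39 ± 0.03 in astrocytes and 15.07 ± 0.00 in neurons, SD, n = 3 each) and did not reach the 2-fold limit.

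The promoters of the peptide gene Sst and of the granin genes Chgb and Scg2, all 3 of which passed as higher in neurons, are shown because each holds the 8-base cAMP response element TGACGTCA, the site to which the factor CREB is known to bind. The windows run from 250 bases before to 50 after the annotated start, from RefSeq on GRCm38.p6, 5′ to 3′ on the gene's strand, with the element in capitals. They are chr16:23890795-23891094 on the minus strand for Sst, chr2:132781392-132781691 on the plus strand for Chgb and chr1:79439977-79440276 on the minus strand for Scg2.
Sst: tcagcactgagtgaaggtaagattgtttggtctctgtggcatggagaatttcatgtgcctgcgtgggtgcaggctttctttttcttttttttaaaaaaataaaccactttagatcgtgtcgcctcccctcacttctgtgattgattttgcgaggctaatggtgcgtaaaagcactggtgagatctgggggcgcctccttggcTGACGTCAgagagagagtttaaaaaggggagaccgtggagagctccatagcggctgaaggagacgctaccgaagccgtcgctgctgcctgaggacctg
Chgb: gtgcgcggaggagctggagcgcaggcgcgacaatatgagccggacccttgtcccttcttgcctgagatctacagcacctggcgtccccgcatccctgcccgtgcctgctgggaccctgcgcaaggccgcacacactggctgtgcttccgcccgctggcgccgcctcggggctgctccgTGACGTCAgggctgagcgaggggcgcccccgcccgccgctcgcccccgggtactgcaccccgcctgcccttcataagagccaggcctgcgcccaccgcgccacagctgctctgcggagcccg
Scg2: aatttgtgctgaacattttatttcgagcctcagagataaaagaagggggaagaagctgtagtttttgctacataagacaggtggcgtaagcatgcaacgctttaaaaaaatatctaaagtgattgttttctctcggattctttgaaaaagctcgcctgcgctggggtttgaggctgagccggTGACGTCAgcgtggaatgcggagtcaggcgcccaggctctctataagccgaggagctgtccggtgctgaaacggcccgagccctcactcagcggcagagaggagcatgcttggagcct

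The element begins at -48 from the start in Sst, at -72 in Chgb and at -68 in Scg2. These 3 promoters were picked for their element and after their values were seen. A window was listed for 7976 of the 9799 tested genes, and TGACGTCA, which reads the same on both strands, occurred in 3.39% of these, in 3.55% of genes higher in neurons, in 2.46% of genes higher in astrocytes, in 3.88% of genes that did not pass and in 1.88% of all 27025 promoters. A match is a description of the letters, not a measured site.

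Genes of the synaptic vesicle and its release lay almost wholly on the neuronal side. Of 28 tested, 27 were higher in neurons and 0 in astrocytes (median -4.42), and Sypl, a synaptophysin relative found in many tissues, was the 1 that did not pass. Sypl was 1.72-fold higher in astrocytes at a limma adjusted p of 0.00136, short of the 2-fold limit, and it was the 1 member with a higher mean there. Napb, a SNAP protein that helps recycle fusion complexes, was at least 37.9-fold higher in neurons, Stx1a, the plasma membrane syntaxin, 40.2-fold and Cplx1, a clamp of the fusion complex, 28.2-fold. Stx1a read 13.90, 13.85 and 13.89 in neurons and 7.98, 8.81 and 8.86 in astrocytes. Of the 28 genes, 18 were highest in array 2 among the astrocyte arrays, and the 27 calls did not change in number without it.

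Relatives of these fusion proteins from the list of pairs differed among themselves. Snap23, the SNAP protein of non-neuronal secretion, was at the lowest value in neurons and at 8.71, 8.90 and 8.73 in astrocytes, at least 8.80-fold higher. Vamp3, a vesicle SNARE of recycling endosomes, was 22.6-fold higher in astrocytes, whereas its relative Vamp2 was 3.75-fold higher in neurons. Stx4a, a syntaxin of non-neuronal secretion, did not pass (log2 difference 0.41).

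Postsynaptic density and adhesion genes split less completely, with 17 of 24 higher in neurons and 1 in astrocytes (median -2.93). Lrrtm1, an adhesion protein of excitatory synapses, was at least 33.0-fold higher in neurons and Cnih2, an AMPA receptor partner, at least 14.4-fold. The kinase gene Camk2b was 27.2-fold higher. The 6 that did not pass included the adhesion genes Nlgn1, Nlgn2 and Nrxn2, with folds between 1.06 and 1.73. Nlgn3 passed as higher in astrocytes while dim in both.

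Every tested voltage-gated channel gene was higher in neurons: 6 of 6 sodium channel genes, 12 of 12 potassium channel genes and 8 of 8 calcium channel genes, with median log2 differences of -5.19, -5.55 and -4.35. Most were dim in astrocytes (5, 10 and 7), so the medians with dim levels raised to the limit are smaller, -3.41, -2.77 and -1.15. The beta subunit gene Scn4b read 10.20, 10.13 and 10.16 in neurons and 2.48, 3.49 and 2.48 in astrocytes, at least 22.9-fold higher. Kcnc2, a potassium channel of fast-spiking cells, was at least 32.8-fold higher and Cacnb4, a calcium channel beta subunit, at least 42.0-fold.

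Potassium channels that hold the resting potential divided between the cells, with 3 of 7 higher in each. Kcnj10, the Kir4.1 channel through which astrocytes take up potassium, read 11.99, 11.81 and 12.08 in astrocytes and 4.90, 4.92 and 4.91 in neurons, at least 79.6-fold higher. Its partner subunit Kcnj16 was at least 17.2-fold higher in astrocytes and the leak channel gene Kcnk1 3.22-fold. Kcnj9, a G-protein-gated channel of neurons, was at the lowest value in astrocytes and at least 3.02-fold higher in neurons.

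Of 7 tested sodium pump genes 2 were higher in astrocytes, 2 in neurons and 3 did not pass, shares near those over all genes. Atp1b2, the beta subunit typical of glia, was 26.4-fold higher in astrocytes (11.90, 11.57 and 11.89 against 7.07, 7.06 and 7.06). Atp1b1 was 2.42-fold higher in neurons, with tight groups of 12.57, 12.66 and 12.62 against 13.85, 13.91 and 13.93, and this call was lost after median centring. Fxyd1, a small regulator of the pump, was at least 127-fold higher in astrocytes, while its relative Fxyd7 was 14.9-fold higher in neurons.

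Carriers of water, bicarbonate, chloride and zinc likewise went both ways, with 9 of 14 higher in astrocytes and 5 in neurons. Car2, a carbonic anhydrase, was 64.5-fold higher in astrocytes and Hepacam, an adhesion protein that places Mlc1 at contacts, at least 56.6-fold. Slc4a10 read 11.73, 11.96 and 11.75 in neurons and 4.02, 7.74 and 4.92 in astrocytes, where array 2 alone was above the dim limit. Slc12a5, the chloride extruder KCC2, was 13.3-fold higher in neurons, and its relative Slc12a2 at least 1.5-fold in astrocytes, a call lost on the deposited and spike-in scales. Clcn2, a chloride channel, passed toward neurons only through array 2 (6.25, 3.4 and 5.84 in astrocytes), and without that array it did not pass (limma adjusted p = 0.24).

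In the glutamate-glutamine cycle astrocytes are known to take up glutamate and return it as glutamine. Of 13 tested genes, 7 were higher in astrocytes and 5 in neurons. Glul, the glutamine synthetase, read 14.46, 14.55 and 14.52 in astrocytes and 11.64, 11.41 and 11.52 in neurons, 7.92-fold higher in astrocytes. Slc38a3, which lets glutamine out of astrocytes, was at least 39.9-fold higher there, while the neuronal glutamine carriers Slc38a1 and Slc38a2 were 5.21-fold and 2.69-fold higher in neurons. Slc1a1, the glutamate transporter of neurons, was at the lowest value in astrocytes and at least 6.39-fold higher in neurons. Slc7a10 and Slc7a11, amino acid exchangers, were at least 26.6-fold and 5.94-fold higher in astrocytes.

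Receptors for glutamate and GABA were mostly neuronal, with a member of each family on the astrocyte side. Among ionotropic glutamate receptors 5 of 8 were higher in neurons, Gria2 by 11.5-fold, and the NMDA subunit gene Grin2c was the 1 higher in astrocytes (10.95, 10.21 and 11.02 against the lowest value, at least 33.9-fold). Among metabotropic receptors 3 of 4 were higher in neurons, and Grm3 was 5.55-fold higher in astrocytes. Among GABA receptors 4 of 8 were higher in neurons and 2 in astrocytes, of which Gabrg1 was at least 30.3-fold higher (10.79, 10.33 and 10.57 against 4.23 in each neuron array). The second, Gabrb1, was at 2.03-fold and lost its call without astrocyte array 2. Of 6 tested genes of GABA synthesis, transport and breakdown, 3 were higher in neurons and 3 in astrocytes. The latter were Maob (a log2 difference of 3.85), Abat (3.63-fold) and the transporter gene Slc6a11 (at least 3.39-fold).

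Other signalling receptors leaned to neurons (9 of 15, with 4 in astrocytes). The dopamine receptor gene Drd1 was at least 9.27-fold higher in neurons and the cannabinoid receptor gene Cnr1 at least 4.57-fold. Gprc5b was at least 47.9-fold higher in astrocytes and the endothelin receptor gene Ednrb at least 13.5-fold. Downstream, 28 of 40 G protein and calcium signalling genes were higher in neurons and 5 in astrocytes (median -2.96). Vsnl1, a neuronal calcium sensor, was 57.2-fold higher in neurons, Rgs4, which shortens G protein signals, at least 55.7-fold and Hpca, the calcium sensor hippocalcin, at least 43.9-fold. The 5 on the astrocyte side were Plcd4, Rgs20, Gng12, Itpr2 and Gnai2. Gng12, a G protein gamma subunit, was 34.1-fold higher in astrocytes, and Itpr2, the calcium release channel of astrocytes, was dim in both.

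Fuel metabolism differed by pathway. In fatty acid oxidation 22 of 24 tested genes were higher in astrocytes and 1 in neurons, with a median log2 difference of 3.86. Acadl, the long-chain acyl-CoA dehydrogenase, read 12.24, 12.29 and 12.03 in astrocytes and 6.64, 6.56 and 6.56 in neurons, 48.5-fold higher. Eci1, an enoyl-CoA isomerase, was at least 76.6-fold higher, Acaa2, the last thiolase of the spiral, at least 37.4-fold and Cpt1a, which admits fatty acids to mitochondria, at least 19.9-fold. Its relative Cpt1c, known from neurons, was the 1 higher in neurons, 5.65-fold (10.82, 10.89 and 11.03 against 8.54, 7.81 and 8.89).

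Glycogen genes followed, with 11 of 13 higher in astrocytes and 0 in neurons (median 3.24). Besides Ppp1r3g, the targeting subunits Ppp1r3d and Ppp1r3c were at least 33.1-fold and 11.5-fold higher. Both glycogen phosphorylases were on the astrocyte side: Pygb, named for brain, read 12.55, 12.14 and 12.18 against 8.93, 8.77 and 8.97, 10.6-fold higher, and Pygm, named for muscle, was at least 8.31-fold higher. Gaa, a lysosomal glucosidase, and Gyg, the glycogen primer, did not pass, with folds of 1.42 and 1.49. On the deposited and spike-in scales 1 glycogen gene passed as higher in neurons.

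Of 10 glycolytic enzymes 2 were higher in astrocytes, 3 in neurons and 5 did not pass, and of 31 oxidative phosphorylation genes 4 were higher in astrocytes, 1 in neurons and 26 did not pass. The median of the respiratory genes was -0.01, and those that did not pass had folds of at most 1.92. Ndufa5, a complex I subunit, had overlapping groups (14.63, 14.65 and 14.62 against 14.67, 14.56 and 14.65). The scale moves these counts: 2 respiratory genes were higher in astrocytes and 5 in neurons in the deposited values, 5 and 1 after median centring, and 2 and 6 with spike-in scaling. Glycolytic genes higher in neurons numbered 5, 3 and 6 on those scales. Aldoc was higher in astrocytes while its relative Aldoa did not pass, with a log2 difference of -0.63.

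For transport of fuel, Slc2a1, the glucose transporter of vessels and astrocytes, was 6.94-fold higher in astrocytes, and Slc2a3, that of neurons, 27.5-fold higher in neurons (11.23, 11.26 and 11.29 against 6.45, 6.53 and 6.45). The lactate carriers matched this, with Slc16a1 at least 3.56-fold higher in astrocytes and Slc16a7 at least 5.84-fold in neurons. Pdk4 and Pdk2, kinases that switch off pyruvate dehydrogenase, were at least 33.3-fold and 4.91-fold higher in astrocytes. Ldhb, a lactate dehydrogenase subunit, lay just under the limit, at 1.99-fold. The thyroid hormone carrier gene Slco1c1 was at least 77.1-fold higher in astrocytes and the peptide carrier gene Slc15a2 at least 89.4-fold.

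Amino acid breakdown and one-carbon metabolism were also on the astrocyte side. Of 19 genes of ketone bodies and branched-chain amino acids, 13 were higher in astrocytes and 1, Bcat1, the cytosolic transaminase, in neurons. The count higher in astrocytes was 10 in the deposited values, 13 after median centring and 8 with spike-in scaling. Of 17 genes of serine, glycine and folate, 12 were higher in astrocytes and 1, Mthfd1l, in neurons. Serine synthesis ran through all 3 steps: Phgdh, the first enzyme, at least 46.5-fold (11.67, 10.42 and 11.46 against 2.33, 2.21 and 2.21), Psat1, the second, 18.4-fold, and Psph, the last, 11.1-fold. Cth, which makes cysteine, was at least 56.4-fold higher and Gldc, which cleaves glycine, at least 42.4-fold.

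Lipid synthesis and traffic showed the same direction with clear exceptions. Of 16 cholesterol synthesis genes 12 were higher in astrocytes and 0 in neurons (median 1.78). The regulator Srebf1 read 11.84, 10.50 and 11.77 against 3.15, 3.17 and 3.16, at least 52.8-fold higher, and Lss, which closes the sterol rings, at least 8.80-fold. Of 23 genes of lipid carriage and sterol turnover, 18 were higher in astrocytes and 5 in neurons. Lcat, which esterifies cholesterol on lipoproteins, was at least 58.1-fold higher in astrocytes and the desaturase gene Fads2 at least 21.5-fold. The 5 higher in neurons were Abcg1, Lpl, Cyp46a1, Vldlr and Scarb1. Cyp46a1, the enzyme by which neurons shed cholesterol, was 7.25-fold higher there. Abcg1, a sterol exporter, was near the lowest value in astrocytes (2.49 to 2.53) and at 10.42, 10.41 and 10.44 in neurons, at least 27.4-fold higher.

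Genes that protect against oxidants and reactive aldehydes were more often higher in astrocytes. Of 29 antioxidant genes 18 were higher in astrocytes and 3 in neurons. Mgst1, a microsomal glutathione transferase, was at least 117-fold higher, the metallothionein genes Mt2 and Mt1 63.0-fold and 29.5-fold, and Nfe2l2, which encodes the stress factor NRF2, at least 40.8-fold. Gpx3, Ggt7 and Mgst3 were higher in neurons. Sod1, Gpx1 and Prdx2 did not pass, with folds from 1.17 to 1.41. Of 21 retinoid and aldehyde genes 17 were higher in astrocytes and 2 in neurons; the largest was Cyp2j9 (at least 34.5-fold), and Aldh6a1 was 27.6-fold and Aldh1a1 23.7-fold higher. The 2 higher in neurons were Cyp26b1, which degrades retinoic acid, and the receptor gene Rxrb at 2.12-fold, a call lost without astrocyte array 2.

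Genes of engulfment were astrocytic for 9 of 15, with 2 in neurons. Mertk, a receptor for phosphatidylserine bridges, read 10.16, 9.25 and 9.80 in astrocytes and the lowest value in neurons, at least 17.1-fold higher. Megf10 was at least 31.8-fold higher and the integrin gene Itgb5 at least 33.3-fold. Elmo1, which activates Rac, and Tyro3, a relative of Mertk, were at least 27.0-fold and 5.57-fold higher in neurons. Among proteins that astrocytes are known to secrete onto synapses and into matrix, 15 of 19 were higher in astrocytes and 0 in neurons. Sparc was at least 18.6-fold higher and its relative Sparcl1 3.76-fold, the protease inhibitor gene Cst3 was 13.8-fold higher and Timp3 at least 11.1-fold.

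In the Notch pathway 9 of 13 genes were higher in astrocytes and 2 in neurons. The receptor genes Notch1 and Notch2 were at least 5.13-fold and 3.57-fold higher in astrocytes. Among targets, Hes5 read 11.21, 10.71 and 11.30 against 4.97, 4.97 and 4.96, at least 43.1-fold higher, and Nrarp, a feedback inhibitor, 11.83, 12.08 and 11.81 against 4.64 in each, at least 76.8-fold. The ligand genes Dll1 and Dll3 were the 2 higher in neurons, both dim in each group.

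The promoter of Hey2, a Notch target that was at least 35.1-fold higher in astrocytes (10.69, 10.83 and 10.81 against 5.17, 5.18 and 5.17), is shown for its pair of matches to CGTGGGAA, the sequence known to be bound by RBPJ, the DNA-binding partner of cleaved Notch. The window is chr10:30842734-30843033 on the minus strand, drawn as for the peptide genes, with each match in capitals.
Hey2: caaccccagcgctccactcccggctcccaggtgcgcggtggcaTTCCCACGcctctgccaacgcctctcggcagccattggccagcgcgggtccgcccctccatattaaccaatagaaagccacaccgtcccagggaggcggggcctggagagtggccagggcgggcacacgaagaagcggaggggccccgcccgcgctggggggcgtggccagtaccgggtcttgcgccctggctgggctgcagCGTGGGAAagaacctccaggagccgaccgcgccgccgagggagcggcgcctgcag

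The matches begin at -207, on the opposite strand, and at -5. Over both strands CGTGGGAA occurred in 1.14% of the windows of tested genes, in 1.16% of those higher in astrocytes, 1.05% of those higher in neurons and 0.762% of all promoters. Also searched on both strands were GACCACCCA for GLI factors, ACAAAG for SRY-box factors, CACGTG for the E-box, TGACTCA for AP-1, TATAAA for the TATA box, and for nuclear factor I its palindrome of TTGGC and GCCAA 5 bases apart. None of the strings contains another. ACAAAG occurred in 15% of windows of genes higher in astrocytes, 12.1% of those higher in neurons and 13% of all tested. For GACCACCCA the shares were 0.357%, 0.0438% and 0.201%, for CACGTG 10.5%, 9.24% and 10.4%, for TGACTCA 3.71%, 3.24% and 3.15%, for TATAAA 7.55%, 7.44% and 6.98%, and for the nuclear factor I palindrome 0.0447%, 0.0% and 0.0376%. The GACCACCCA shares rest on 8, 1 and 16 windows and those of the nuclear factor I palindrome on 1, 0 and 3, too few to compare. The motifs were chosen after values of these genes had been seen.

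In the BMP and TGF-beta pathway 13 of 21 genes were higher in astrocytes and 3 in neurons. The Id genes, direct targets of BMP signals, were all on the astrocyte side: Id1 at least 14.8-fold, Id2 3.47-fold, Id3 at least 276-fold and Id4 22.1-fold. The receptor genes Bmpr1a and Bmpr1b were at least 8.26-fold and 6.94-fold higher. Bmp2, a ligand, was at least 1.80-fold higher in neurons. In the Hedgehog pathway 5 of 8 were higher in astrocytes. Gas1, a co-receptor, was at least 35.3-fold higher, Gli3 and Gli2, the transcription factors, at least 13.1-fold and 6.29-fold, and Smo, the signal-passing membrane protein, at least 12.2-fold. Shh, the ligand, was the 1 higher in neurons, at least 1.22-fold.

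Of 16 FGF, EGF and neuregulin genes 10 were higher in astrocytes and 4 in neurons. The receptor genes Fgfr1, Fgfr2 and Fgfr3 were at least 3.81-fold, 13.6-fold and 1.54-fold higher in astrocytes, and Fgf1 at least 25-fold. Fgf9, Fgf13 and Fgf14 were higher in neurons with the feedback gene Spred2. Of 17 Wnt genes 12 were higher in astrocytes and 3 in neurons. Fzd2, a receptor, was at least 35.1-fold higher and Ndp, the ligand norrin, at least 50.2-fold (11.47, 11.07 and 11.34 against 3.61, 3.33 and 3.32). Wnt4, Sfrp2 and Dvl1 were higher in neurons.

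Of 23 guidance genes 11 were higher in neurons and 5 in astrocytes. The receptor gene Ephb6 and the cue gene Slit2 were at least 9.87-fold and 11.2-fold higher in neurons. The plexin genes Plxnb1 and Plxnb2 were at least 10.2-fold and 6.08-fold higher in astrocytes. Growth factors split, with 8 of 15 in astrocytes and 5 in neurons. Mdk, midkine, read 12.49, 11.46 and 12.70 in astrocytes and the lowest value in neurons, at least 95.1-fold higher. Igfbp2 was 40.3-fold higher in astrocytes, and its relative Igfbp4 at a log2 difference of -5.64 toward neurons, with Bdnf at least 4.40-fold in neurons.

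Transcription factors known from glia were higher in astrocytes for 21 of 23, with 0 in neurons and a median log2 difference of 5.62. Rfx4 read 12.41, 12.36 and 12.17 in astrocytes and 2.94, 2.95 and 2.95 in neurons, at least 102-fold higher (limma adjusted p = 2.57e-30). Sox2, a stem cell factor kept in astrocytes, was 37.4-fold higher, Sox21 at least 35.6-fold and Sox9 at least 24.7-fold. Wwtr1, a co-activator related to YAP, was at least 20.4-fold higher. Nfix and Nfib did not pass, with folds of 1.27 and 1.87. Factors known from neurons were higher in neurons for 17 of 26 and in astrocytes for 3. The latter were Rorb, Pou3f3 and Tcf4. Myt1l, which represses other fates in neurons, was 22.2-fold higher in neurons, and Mef2c 7.92-fold.

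The cytoskeleton divided by filament type. Vim, vimentin, read 10.29, 10.52 and 10.22 in astrocytes and the lowest value in neurons, at least 26-fold higher, while 6 of the 9 tested intermediate filament genes were higher in neurons, among them Nefm (at least 49.0-fold) and Ina (at least 44.2-fold). Tubulins and microtubule proteins were higher in neurons for 21 of 32 and in astrocytes for 4. Actin and membrane skeleton genes were even, 11 of 28 in astrocytes and 9 in neurons. Arhgef26, an exchange factor, was at least 95.7-fold higher in astrocytes and Ezr, the ezrin of fine astrocyte processes, at least 35.8-fold. Cyfip2, of the WAVE complex, was 49.2-fold higher in neurons and Ank3, of the axon initial segment, at least 3.79-fold.

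Activity-dependent genes were neuronal where they passed, 11 of 21, with 0 in astrocytes. Arc, a synaptic capsid-like protein, was 37.6-fold higher in neurons (11.11, 11.13 and 11.07 against 5.78, 5.83 and 6.0) and Egr2 26.3-fold. Fos was less clear: its astrocyte arrays read 12.24, 13.11 and 10.48 against 13.70, 13.77 and 13.67, and the 3.41-fold difference passed at a limma adjusted p of 0.038. Jun, Jund, Nr4a1 and Dusp1 were among the 10 that did not pass.

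Genes of reactive astrocytes and of interferon were often dim in both populations. Of 20 reactive genes 8 were higher in astrocytes and 3 in neurons, and 11 were dim in both. Without array 2 the count in astrocytes was 6. Lcn2, Cp and Cd14 were at the lowest value in both. Serpina3n, a common marker of reactivity, did not pass (9.80 and 9.19). Of 18 interferon and antigen presentation genes 6 were higher in astrocytes, among them B2m (3.55-fold), H2-K1 (at least 4.58-fold) and Ifitm3 (at least 19.5-fold), and 8 were dim in both. Cytosolic ribosomal proteins were even at 2 and 2 of 11. On the deposited values those counts were 0 in astrocytes and 4 in neurons, after median centring 3 and 1, and with spike-in scaling 0 and 5.

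Genes tied to neurodegeneration fell on both sides, 4 of 22 in astrocytes and 9 in neurons. App, the amyloid precursor, was 8.07-fold higher in neurons and its protease gene Bace1 3.96-fold, while Apoe and Clu were 271-fold and 5.37-fold higher in astrocytes. The count in astrocytes was 2 in the deposited values, 3 after median centring and 2 with spike-in scaling.

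Pairs of related genes, the first taken as known from glia and the second from neurons, gave a compact view of these differences. The pairs were written with earlier results of these data known, so their counts are not independent support. Of 42 pairs, 28 had both members tested. In 17 the first member was higher in astrocytes and the second higher in neurons, and in 5 both were higher in astrocytes. In 0 was the first higher in neurons and the second in astrocytes. The 17 became 16 in the deposited values, 16 after median centring and 17 with spike-in scaling. Beyond those already given, Ndrg2 was 51.9-fold higher in astrocytes and Ndrg4 differed by -2.00 on the log2 scale, and of the dystrobrevin genes Dtna was 6.71-fold higher in astrocytes and Dtnb at least 5.69-fold in neurons. Slc25a18 differed by 9.63 and its relative Slc25a22 by -2.66. The 5 pairs with both in astrocytes were the phosphorylases, Fgfr3 with Fgfr1, Map4 with Map2, Sparcl1 with Sparc, and Apoe with Apod.

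**Figure D5:**
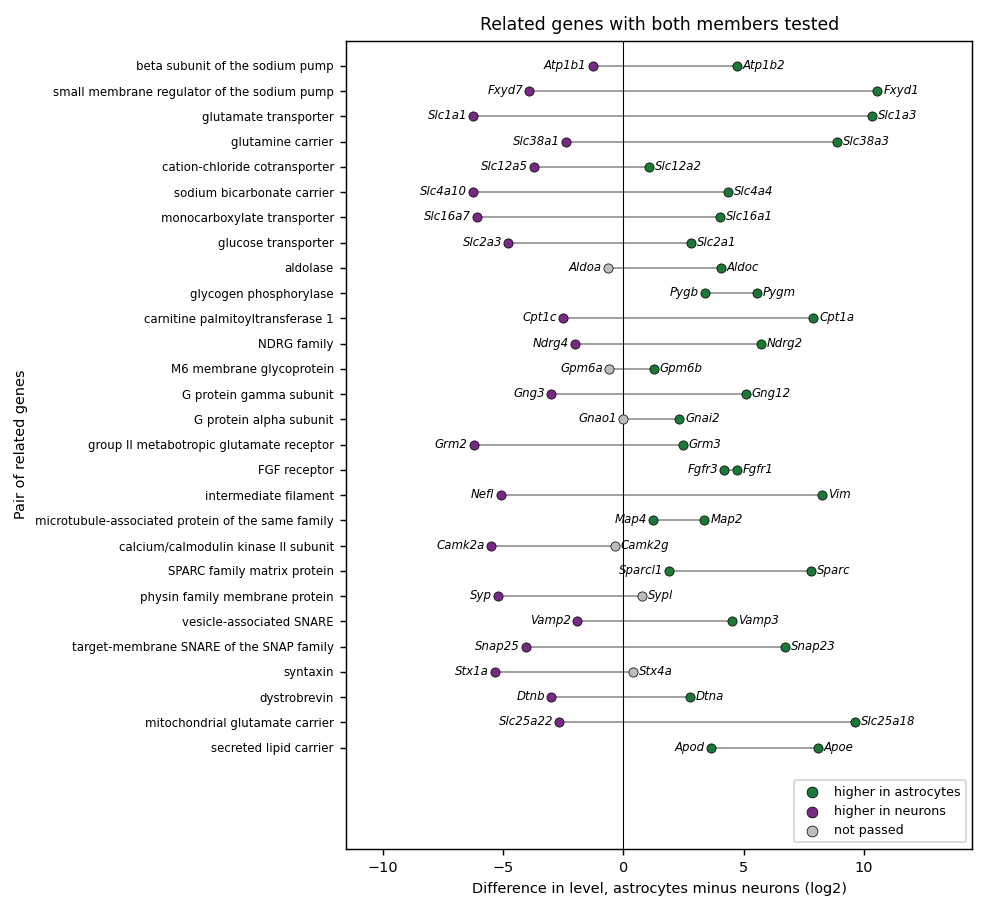
Difference in level between astrocytes and neurons (log2, horizontal axis; above 0 is higher in astrocytes) for the 28 pairs of related genes with both members tested. Green points passed as higher in astrocytes, purple as higher in neurons and grey did not pass; a line joins the members of each pair. In 17 pairs a green point lies opposite a purple point.

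Markers of other cells of the cortex were mostly dim. Of 16 microglia markers measured, 15 were dim in both groups, 7 were at the lowest value in astrocytes and 10 in neurons, Cx3cr1, Itgam and Tmem119 in both, and Ctss, a protease, was the 1 above the limit and did not pass. Of the 12 tested, 3 passed toward astrocytes and 2 toward neurons, each dim in both. Of 12 endothelial markers all were dim in both, and 9 and 10 were at the lowest value, Pecam1, Cdh5 and Flt1 in both. Of 5 blood cell markers all were dim in both. Pericyte and fibroblast markers were dim in both for 10 of 14. Of the 12 tested, 2 were higher in astrocytes, 1 in neurons and 9 did not pass. Pdgfrb (at least 4.0-fold) and Myl9 (at least 2.24-fold) were the 2 higher in astrocytes, and Dcn (at least 2.54-fold) the 1 higher in neurons.

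Genes of the oligodendrocyte lineage were brighter. Of 14 myelin markers 9 were dim in both, with Mobp and Gjb1 at the lowest value in each group, but 4 were higher in astrocytes: Gpr37 (at least 22.2-fold), Aspa (at least 13-fold), Cnp (11.4-fold) and Cldn11 (at least 1.95-fold). Their summed level ranged from 11.20 to 11.66 in astrocytes and from 9.36 to 9.50 in neurons. Mbp, a structural protein of myelin, was 3.0-fold higher in neurons, and 3 further markers that passed toward neurons were dim in both. Of 11 progenitor markers 7 were dim in both, with Pdgfra and Cspg4 at the lowest value, and 5 were higher in astrocytes and 1 in neurons. Olig1 (15.2-fold), Olig2 (at least 7.59-fold) and Rlbp1 (at least 72.1-fold) were higher in astrocytes with Bmp4 and C1ql1, both dim in each group. Lhfpl3 was at least 1.92-fold higher in neurons (6.58 against 3.24). Their summed level was 13.87 to 13.92 in astrocytes and 9.71 to 9.89 in neurons. Olig1 read 13.40, 13.56 and 13.37 against 9.37, 9.56 and 9.60. The part of oligodendrocyte RNA in these values was not tested.

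Ttr, the thyroid hormone carrier made by the choroid plexus, varied widely among the astrocyte arrays. It read 9.37, 13.91 and 8.66 in astrocytes and the lowest value in each neuron array, at least 32.1-fold higher with array 2 and at least 10.3-fold without it. Of the 6 tested choroid plexus and ependymal markers 2, Ttr and Ccdc153, were higher in astrocytes and 4 did not pass. Their summed level spanned 9.50 to 13.94 in astrocytes and 8.17 to 8.39 in neurons, with Ttr at 13.91 in the highest array, while their median level was 6.11, 6.13 and 6.42 in astrocyte arrays 1, 2 and 3, and Foxj1, Kl and Aqp1 were at the lowest value in both groups. The part of choroid plexus RNA was not tested.

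Set beside the other reporter lines of the cortex, which enter the same model with 3 arrays each, several genes kept a higher level in astrocytes. Aldh1l1 was 3.74 log2 units higher in astrocytes than in mature oligodendrocytes (7.71 ± 0.81, SD, n = 3) and 5.06 higher than in progenitors (6.39 ± 0.89). Gja1 was 4.12 and 4.27 higher, and Ntsr2 6.58 and 7.19. Grin2c and Rorb were near the lowest value or dim in both oligodendrocyte lines (2.34 and 2.30 for Grin2c, 2.86 and 2.79 for Rorb), with differences of 8.38 and 8.43, and 7.59 and 7.67. Other genes were shared with 1 or both of these lines. Il33 stood higher in mature oligodendrocytes (14.43 ± 0.13) than in astrocytes (12.24), as did Glul (14.90 ± 0.04 against 14.51). Kcnj10 stood at 12.17 ± 0.12 in mature oligodendrocytes and 11.29 ± 0.22 in progenitors, against 11.96 in astrocytes. Grm3 stood at 12.45 ± 0.05 in mature oligodendrocytes against 12.48. Fabp7 (14.55 ± 0.15) and Hes5 (10.31 ± 0.07) in progenitors differed from astrocytes by 0.23 and 0.76 (limma adjusted p = 0.52 and 0.12), and Phgdh in mature oligodendrocytes (11.03 ± 0.36) by 0.15 (limma adjusted p = 0.72). A p that misses the threshold does not show that these levels are equal. The progenitor arrays stood apart in RNA integrity, with an actin 3′ to 5′ difference of 5.93 to 6.76 and a Gapdh one of 5.79 to 6.48, and the part of this in the progenitor comparisons was not tested.

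Olig1 was lower in astrocytes than in either oligodendrocyte line, by 1.56 and 2.06, as were Cnp (4.75 and 1.95) and Aspa (4.69 and 1.47). Rlbp1 was 5.36 higher in astrocytes than in mature oligodendrocytes but 1.96 lower than in progenitors. Stmn4, Snap25 and Gad1, all higher in neurons, stood higher in both oligodendrocyte lines than in astrocytes, whereas Fxyd7, also higher in neurons, stood lower there (6.72 and 3.76 against 7.26). Stmn4 stood at 14.02 ± 0.04 in mature oligodendrocytes, 0.94 above neurons (limma adjusted p = 0.038), and at 11.91 ± 0.06 in progenitors. Snap25 stood at 14.04 ± 0.10 and 14.67 ± 0.07, and Gad1 at 11.81 ± 0.28 and 11.36 ± 0.49, where its differences from neurons of -0.15 and 0.29 did not pass (limma adjusted p = 0.73 and 0.46). Of these 4 populations astrocytes held the lowest mean of Snap25, Stmn4, Syn1 and Tubb3.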

How the data were processed

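Bound RNA of adult mouse cortex was measured on one-colour Affymetrix arrays after a 2-cycle amplification, per the labels' protocols. The deposited values are log2 signals made by the authors with GCRMA, per the submitters' processing notes (version and settings not given in the sources used here). Each group of arrays shares its own lowest deposited value, so the background step appears to have been run group by group, and the scale between groups cannot be told from the values. Columns not used numbered 0.

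From these, values were quantile normalized over 38 arrays (limma 3.58.1, R 4.3.3). Of 16395 probe sets, 64 controls and 687 without a gene were left out; gene symbols came from the platform table, and 15617 of 15644 matched RefSeq. The filter, the model (26 residual degrees of freedom, prior 2.06) and the thresholds are given with the results. The number of arrays limits the precision. The fit was tested on simulated data.

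Named genes were the reporters, the 10 largest measured differences and 10 largest lower bounds each way, up to 5 members of each list with the largest difference plus members that passed against the list, and both members of related pairs; other names were chosen after their values were seen. The 61 lists hold 1357 entries, of which 1151 were measured and 955 tested. Members, lists and related pairs were chosen with earlier results of these data known. A list entry was matched by synonym only where it was no current symbol. Not every list is described. Alternatives changed the scale, the filter, the dim limit, the arrays in the fit, the prior, the test and single arrays.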

Additional observations from a re-analysis of the deposited data

How the results depend on the processing

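The counts of genes higher in astrocytes and in neurons stayed within 1.5 times of 2700 and 2870 under all alternatives but 1. Spike-in scaling gave 4431 higher in neurons. The median gene's difference was -0.79 on that scale and already -0.65 in the deposited values, before any spike-in step. Leaving out each array in turn gave 2668 to 2707 and 2831 to 2894. Same-numbered arrays shared only a number (correlations of their deviations 0.0524, 0.102 and 0.156, each astrocyte array correlating best with its own number, a hint from the data and not the design). A replicate block on the 6 arrays gave 2709 and 2882, against 2719 and 2887 without it. No filter gave 3094 and 3264, and a test against 2-fold 2091 and 2205. Chosen after seeing the data, leaving out genes dim in both groups gave 2494 and 2658, and raising dim levels to the limit gave 2166 and 2340. Of 396 named genes, none of those with a value reversed under an alternative (363 had one with the filter on the 6 arrays, 383 at the dim limit of 100, 393 in deposited values and 392 after median centring or spike-in scaling). Calls were lost for 17 in the deposited values, 9 after median centring, 17 with spike-in scaling, 36 in the test against 2-fold and 50 with dim levels raised. Leaving out 1 array lost at most 7. Signal over background limits the rest, since of the genes that passed toward astrocytes 1222 were dim in neurons and 206 in both, and toward neurons 1253 were dim in astrocytes and 212 in both.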
